A study of Mus musculus with 9 samples.

Results

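The genes described here encode the ion channels, transporters and calcium handling proteins with which a heart muscle cell fires its action potential and couples it to contraction. They were 38 genes set by name and grouped as calcium (17), sodium (2), potassium (15), pacemaker (2) and gap junction (2) genes. Each was read from the probe set annotated to that gene alone, and from the brightest where there were several. Of the 38 genes 37 were measured, among 18820 genes in all. Cacnb2, which encodes an auxiliary subunit of the L-type calcium channel, was not analysed here.

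The study asked how a nutritional intervention (NI) alters the right ventricle in mice with pulmonary hypertension. Affymetrix mouse gene 1.1 ST arrays were hybridised with right ventricular RNA of 9 female C57BL/6 mice, 1 array per mouse. Values are log2 intensities after robust multi-array analysis (RMA), so that a difference of 1 is a doubling. All mice were 8 weeks old on arrival, and from an age of 10 weeks they were injected subcutaneously each week for 8 weeks. The 3 sham mice (620, 624 and 625) received saline and ate the AIN-93M control diet. The 3 MCT mice (640, 641 and 644) received monocrotaline (MCT), a plant alkaloid that injures the pulmonary vessels, at 600 mg/kg, on the same control diet. The 3 MCT + NI mice (615, 617 and 619) received the same injections with an isocaloric diet enriched in fish oil, leucine, oligosaccharides and protein. By the labels the diets started 2 weeks before the injections, whereas the methods give a shorter lead. The methods describe the mice chosen for arrays as matched for disease severity, and no group received the NI diet without MCT.

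When a heart muscle cell is depolarized, calcium enters through L-type channels and opens ryanodine receptors on the sarcoplasmic reticulum, and the calcium released starts contraction. Relaxation follows as the SERCA pump returns calcium to the store and the sodium-calcium exchanger moves it out of the cell. Several potassium currents repolarize the membrane, and in the mouse ventricle the fast transient outward current carries much of this task.

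Ventricular muscle markers were high and even in all arrays, whereas atrial markers were not. The mean of 13 ventricular cardiomyocyte markers lay between 11.37 and 11.45 in every mouse, and of the 13 none passed the test between MCT and sham mice and 1 (Tnnc1) rose in MCT + NI compared to sham mice. The mean of 7 atrial cardiomyocyte markers (Myl7, Myl4, Sln, Nppa, Bmp10, Dkk3 and Pam) spread far more widely and was high in all 3 sham mice, although the tissue is labelled right ventricle. It was 10.31 to 11.14 in the sham group, 5.86 to 10.81 with MCT and 5.96 to 9.41 with MCT and NI together. The atrial muscle gene Myl7, for example, was 10.55 to 11.77 in the sham mice and 11.40 in MCT mouse 644, but 3.07 and 3.66 in MCT mice 640 and 641. MCT mouse 644 lay at the sham level and MCT + NI mouse 615 between the others, so that results moving with these markers are given below with and without both mice. The array medians were 4.77 to 4.79. Of the other marker lists, in MCT compared to sham mice, 4 of 10 endothelial markers rose and 1 fell. In the same comparison 5 of 10 fibroblast markers, 3 of 9 macrophage markers, 1 of 6 mesothelial markers and 8 of 12 smooth muscle and pericyte markers rose. Of the 7 conduction system markers 1 fell, and none of the 6 skeletal muscle or 4 Schwann cell and neuron markers passed.

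Most of the ion channel and calcium handling genes did not pass the test in any comparison, and those that did moved by less than 3-fold. In MCT compared to sham mice the ryanodine receptor gene Ryr2, the triadin gene Trdn and the potassium channel gene Kcnd3 fell, and the ATP-sensitive potassium channel gene Kcnj8 rose. These 4 of 37 genes are 10.8% of the genes measured, beside 6.26% of all 18820 genes (limma, Benjamini-Hochberg adjusted p under 0.05). By direction, 1 gene (2.7%) rose, beside 4.65% of all genes, and 3 genes (8.11%) fell, beside 1.61%. In MCT + NI compared to sham mice Kcnj8 and Kcna5 rose and Kcnd3 and Kcnj3 fell, again 10.8% of the genes, beside 6.26% of all genes. Those 2 genes in each direction are 5.41% of the genes measured, beside 4.52% of all genes for a rise and 1.75% for a fall. Both comparisons share the 3 sham arrays.

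At an unadjusted p under 0.05, 14 of the 37 genes (37.8%) set MCT apart from sham mice, beside 19.7% of all genes. Of these 4 were higher (10.8%, beside 10.6%) and 10 were lower (27%, beside 9.14%). In MCT + NI against sham mice 16 genes (43.2%) did so, beside 19.5% of all genes, with 4 higher (10.8%, beside 10.2%) and 12 lower (32.4%, beside 9.37%). The 3 MCT and 3 sham values did not overlap in 15 genes (40.5%), beside 21.9% of all genes, with 4 higher (10.8%, beside 11.7%) and 11 lower (29.7%, beside 10.2%). For MCT + NI and sham mice this held for 16 genes (43.2%), beside 21% of all genes, with 4 higher (10.8%, beside 10.7%) and 12 lower (32.4%, beside 10.3%). The median difference over the 37 genes was -0.08 for MCT and -0.08 for MCT + NI against sham mice, and over all genes it was -0.02 in each. In MCT mice 26 of the 37 genes (70.3%) had a mean below that of sham mice, beside 55% of all genes. In bulk tissue, fewer cells of a type and less RNA per cell cannot be told apart. All 3 sham mice were also high in the atrial markers. Kcnj3, Kcnj5 and Cacna1h, described with these markers below, were among the lower genes at an unadjusted p under 0.05 in both comparisons. Counts with the atrial marker mean as a covariate are given in the last section.

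**Figure D1:**
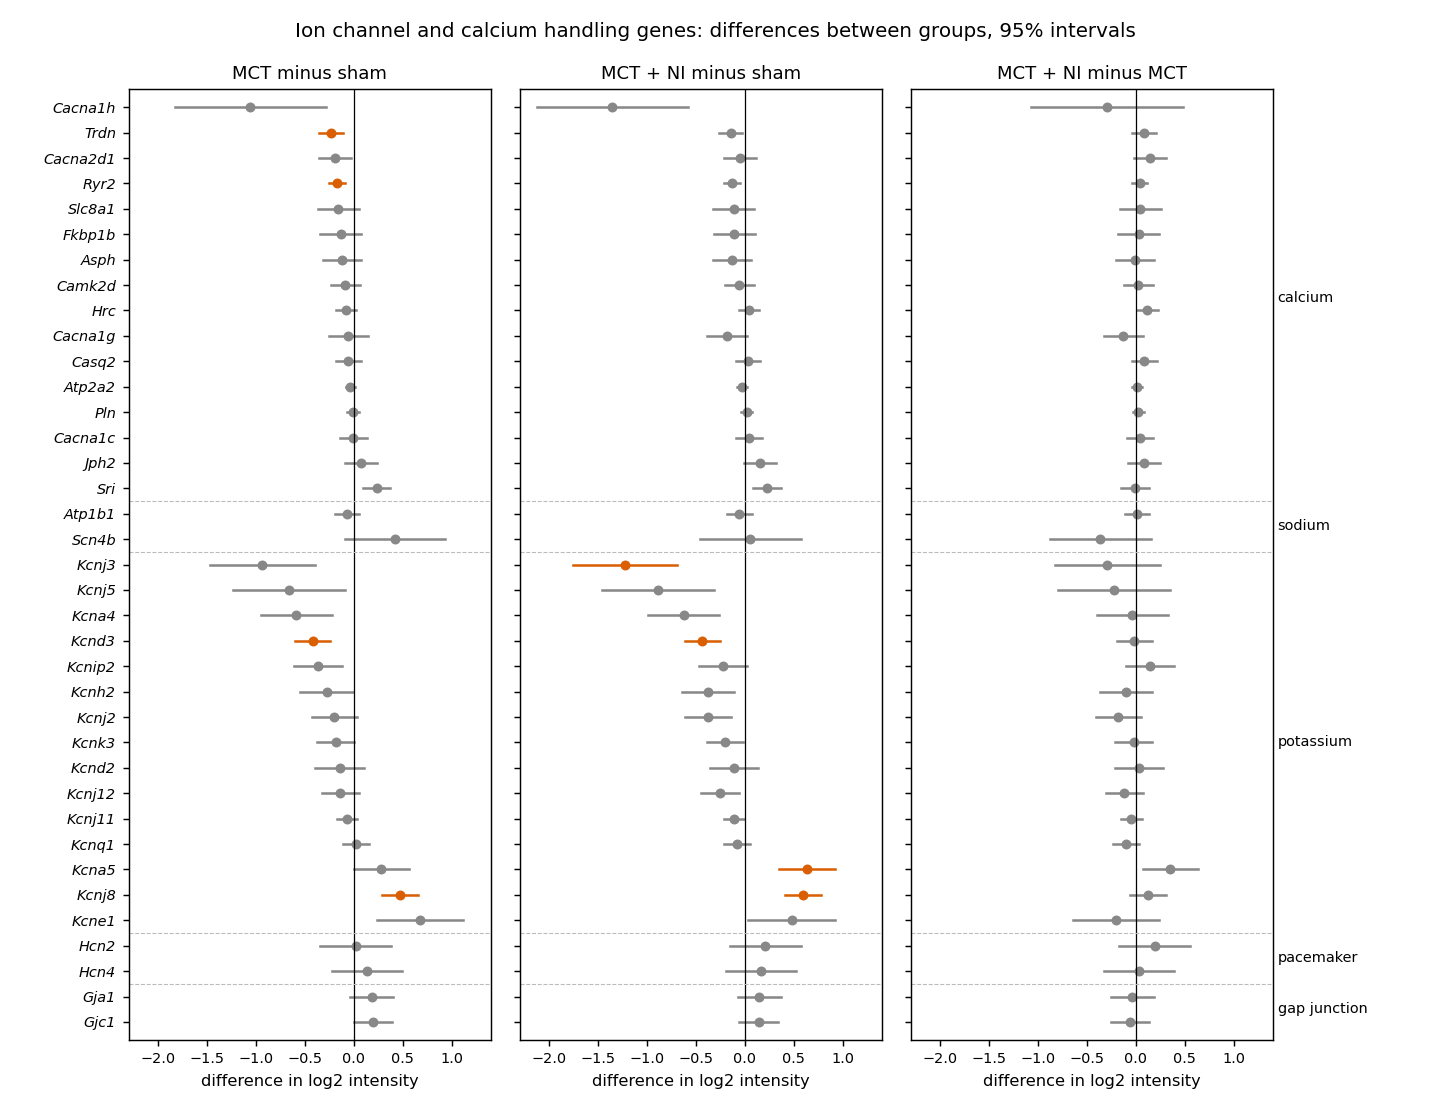
Differences in mean log2 intensity (x axis) with their 95% intervals from limma for the 37 measured genes (y axis, grouped by role), for MCT minus sham, MCT + NI minus sham and MCT + NI minus MCT. Orange marks an adjusted p under 0.05, which 4 genes reached in each comparison with sham mice and 0 genes in the comparison of both MCT groups.

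Of the 16 calcium genes measured, 2 fell and 0 rose in MCT compared to sham mice, beside 1.61% and 4.65% of all genes. In the same comparison 14 of 16 (87.5%) had a lower mean, beside 55% of all genes. Ryr2 encodes the calcium release channel of the sarcoplasmic reticulum. Its log2 intensity was 11.65, 11.68 and 11.72 (sham), 11.54, 11.45 and 11.56 (MCT) and 11.57, 11.56 and 11.53 (MCT + NI). All 6 MCT-injected mice lay below all 3 sham mice. The group means were 11.69 ± 0.034, 11.52 ± 0.061 and 11.56 ± 0.018 (SD, n = 3 each). In MCT mice Ryr2 thus fell by 0.17, as a log2 difference (0.889-fold, SE 0.0353, limma adjusted p = 0.0234). In MCT + NI mice the difference from sham was -0.13 (adjusted p = 0.0687), and between both MCT groups it was 0.04 with a 95% interval of -0.04 to 0.12. The Ryr2 call was lost when sham mouse 624 or 625, or MCT mouse 640 or 641, was left out, with adjusted p-values of 0.0678, 0.079, 0.0529 and 0.0567. It was also lost with only the 2 groups compared (limma adjusted p = 0.0682) and with no intensity trend (adjusted p = 0.108). With the atrial marker mean as a covariate the Ryr2 difference was -0.13 (adjusted p = 0.188).

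Trdn encodes triadin, which anchors calsequestrin to the ryanodine receptor. Its values were 10.96, 10.99 and 10.95 (sham), 10.68, 10.79 and 10.74 (MCT) and 10.80, 10.94 and 10.73 (MCT + NI). The sham mice again lay above all others, although MCT + NI mouse 617 came close to them. MCT mice showed a fall of Trdn by 0.23 (0.853-fold, SE 0.0535, limma adjusted p = 0.0376), whereas the difference in MCT + NI mice was -0.15 (adjusted p = 0.174). MCT + NI minus MCT had a 95% interval of -0.04 to 0.21, which includes 0. The Trdn call was the least stable of the 4, since it was lost on leaving out any 1 of the 3 sham mice (620, 624 and 625), any 1 of the 3 MCT mice (640, 641 and 644) or MCT + NI mouse 615, with adjusted p-values from 0.0607 to 0.138. With both MCT mouse 644 and MCT + NI mouse 615 left out, the call was also lost (-0.23, adjusted p = 0.133). The same held with the atrial marker mean as a covariate (-0.23, adjusted p = 0.18), with no intensity trend (adjusted p = 0.0911) and with all probe sets tested (adjusted p = 0.0731). Without MCT + NI mouse 617 the difference between MCT + NI and sham mice was -0.21 (adjusted p = 0.0252).

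The array carried 19 probe sets annotated to Trdn alone, more than for any other gene of the set. The difference between MCT and sham means was negative at 18 of the 19 probe sets and positive at 1, with a median of -0.25 and a range of -0.48 to 0.38. Between MCT + NI and sham mice it was negative at 17 of 19, with a median of -0.17. A fit on the mean of the 19 probe sets did not pass in MCT compared to sham mice (-0.22, limma adjusted p = 0.162). The MCT + NI mean was above the MCT mean at 17 of 19 probe sets, by a median of 0.08. These probe sets read the same 9 RNA samples and are not replicates of one another.

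**Figure D2:**
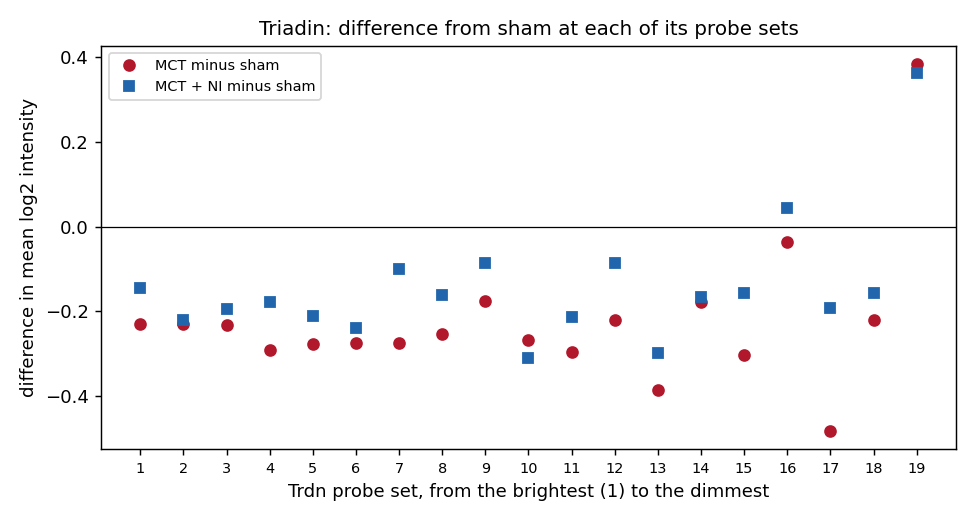
Difference in mean log2 intensity from sham mice (y axis) at each of the 19 Trdn probe sets, ordered from the brightest to the dimmest (x axis), for MCT mice (circles) and MCT + NI mice (squares). The MCT points lie below 0 at 18 probe sets and the MCT + NI points at 17.

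Genes for the proteins that refill the store differed less. Atp2a2, which encodes the SERCA pump, had means of 12.90 ± 0.017 (sham), 12.87 ± 0.022 (MCT) and 12.88 ± 0.0087 (MCT + NI), and the 95% interval of the MCT difference was -0.08 to 0.02. Phospholamban (Pln), the inhibitor of that pump, differed by -0.01 between MCT and sham mice with an interval of -0.07 to 0.05. Cacna1c, the pore subunit of the L-type channel, had the smallest difference of all, with means of 10.05 (sham), 10.04 (MCT) and 10.09 (MCT + NI) and an interval of -0.14 to 0.13 for MCT minus sham. These intervals exclude, for each of the 3 genes, a difference in array intensity in MCT mice as large as that measured for Trdn. They describe intensity and not RNA amount, and Atp2a2 and Pln lie near the highest value in the data, 13.43. The remaining calcium genes with an unadjusted p of 0.05 or more in every comparison, among them the exchanger gene Slc8a1, calsequestrin (Casq2), junctophilin (Jph2) and Camk2d, differed by -0.16 to 0.07 between MCT and sham mice. This range is that of the brightest probe set of each gene. A second, dimmer Slc8a1 probe set differed from sham by -0.34 in MCT and -0.37 in MCT + NI mice, with overlapping groups. Fkbp1b, which stabilizes the closed ryanodine receptor, had group means of 4.09, 3.96 and 3.99, below the array medians, so that its probe set gives little information.

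Sorcin (Sri), a calcium-binding protein that acts on the ryanodine receptor, was the calcium gene with the largest positive difference. Its means were 7.65 ± 0.089 (sham), 7.88 ± 0.066 (MCT) and 7.88 ± 0.079 (MCT + NI), and all 6 MCT-injected mice were above all sham mice. The differences of 0.23 and 0.23 did not pass (limma adjusted p = 0.0682 and 0.0722). Cacna2d1, an auxiliary subunit of the L-type channel, had means of 9.46 (sham), 9.27 (MCT) and 9.41 (MCT + NI) (MCT minus sham -0.19, adjusted p = 0.179). Hrc, a calcium-binding protein of the sarcoplasmic reticulum lumen, had means of 9.63, 9.56 and 9.68 in the same order. It was 1 of the 2 genes that reached an unadjusted p under 0.05 for MCT + NI minus MCT, with a difference of 0.12 and a 95% interval of 0.02 to 0.22 (limma, unadjusted p = 0.0267, adjusted p = 1).

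**Figure D3:**
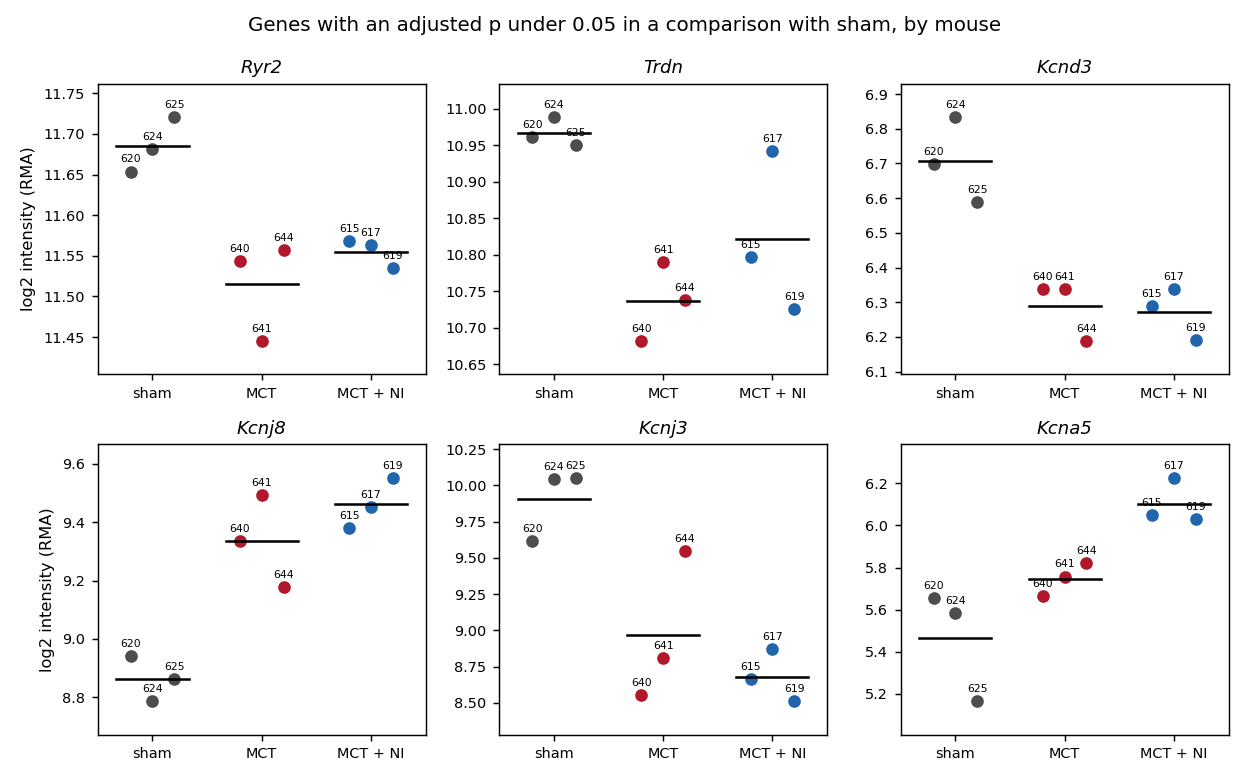
Log2 intensity (y axis) in each of the 9 mice, by group (x axis), for the 6 genes with an adjusted p under 0.05 in a comparison with sham mice. Points are mice with their numbers and bars are group means, and each panel has its own scale. Ryr2, Trdn and Kcnd3 lie lower and Kcnj8 higher in all 6 MCT-injected mice than in the 3 sham mice.

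Of the 15 potassium genes, 1 rose and 1 fell in MCT compared to sham mice, and 2 rose and 2 fell in MCT + NI compared to sham mice. Over all genes 4.65% rose and 1.61% fell in MCT mice, and 4.52% rose and 1.75% fell in MCT + NI mice. Kcnd3 encodes Kv4.3, a pore subunit of the fast transient outward current. Its values were 6.70, 6.83 and 6.59 (sham), 6.34, 6.34 and 6.19 (MCT) and 6.29, 6.34 and 6.19 (MCT + NI). The groups did not overlap with sham, and both MCT groups covered almost the same range. MCT mice 640 and 641 and MCT + NI mouse 617 share an identical value, which narrows the spread within and between these groups. Kcnd3 fell by 0.42 in MCT mice (0.749-fold, SE 0.0786, limma adjusted p = 0.0149) and by 0.43 in MCT + NI mice (0.74-fold, adjusted p = 0.0127). Between both MCT groups the difference was -0.02 with a 95% interval of -0.19 to 0.16. A second, dimmer Kcnd3 probe set differed by only -0.06 and -0.01 from sham, and the mean of both probe sets did not pass (-0.24, adjusted p = 0.102, and -0.22, adjusted p = 0.124). Without MCT + NI mouse 619 the adjusted p of Kcnd3 in MCT + NI mice was 0.0589. With both MCT mouse 644 and MCT + NI mouse 615 left out, both Kcnd3 calls were lost, at -0.37 (adjusted p = 0.0815) in MCT and -0.44 (adjusted p = 0.0513) in MCT + NI mice. Neither passed with the atrial marker mean as a covariate, at -0.47 (adjusted p = 0.0631) and -0.49 (adjusted p = 0.0737).

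The other genes of the transient outward currents did not pass. Kcnd2, which encodes the Kv4.2 pore subunit, differed by -0.15 in MCT and -0.11 in MCT + NI mice. Kcnip2, the accessory subunit that brings Kv4 channels to the membrane, had means of 9.07 ± 0.19 (sham), 8.71 ± 0.18 (MCT) and 8.86 ± 0.038 (MCT + NI) (MCT minus sham -0.37, limma adjusted p = 0.092). Without sham mouse 625 that difference was -0.47 (adjusted p = 0.0438). Kcna4, the pore subunit of the slow transient outward current, had values of 4.71, 5.42 and 5.19 (sham), 4.48, 4.45 and 4.63 (MCT) and 4.57, 4.48 and 4.39 (MCT + NI). All sham mice were higher, and the differences were -0.59 (adjusted p = 0.0703) and -0.62 (adjusted p = 0.0563). Without sham mouse 620 both passed, at -0.78 (adjusted p = 0.00714) and -0.82 (adjusted p = 0.00584).

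Kcnj8 encodes Kir6.1, a pore subunit of ATP-sensitive potassium channels that is abundant in vascular smooth muscle cells and pericytes. Its values were 8.94, 8.79 and 8.86 (sham), 9.33, 9.49 and 9.18 (MCT) and 9.38, 9.45 and 9.55 (MCT + NI). Every MCT-injected mouse lay above every sham mouse. Kcnj8 rose by 0.47 in MCT mice (1.39-fold, SE 0.0806, limma adjusted p = 0.00932) and by 0.60 in MCT + NI mice (1.51-fold, adjusted p = 0.00296), and both calls held on leaving out any single mouse. With the atrial marker mean as a covariate the MCT difference of Kcnj8 was 0.32 (adjusted p = 0.0625). Most of the smooth muscle and pericyte markers moved with it. The mean of the 12 markers, Kcnj8 included, was 7.94 to 7.99 (sham), 8.33 to 8.56 (MCT) and 8.42 to 8.48 (MCT + NI), and 8 of the 12 rose in each MCT group, among them Kcnj8, Rgs5, Pdgfrb and Cspg4. Cnn1 went the other way, at -0.21 in MCT (adjusted p = 0.531) and -0.45 in MCT + NI mice (adjusted p = 0.167). Abcc9, the regulatory subunit that pairs with Kir6.1 and also a member of that marker list, had a difference of 0.02 in MCT mice (adjusted p = 0.935) and 0.09 in MCT + NI mice (adjusted p = 0.596). The part of these cells in the Kcnj8 result was not tested. Kcnj11, which encodes Kir6.2, the pore subunit of the channel in heart muscle cells, had means of 7.44 (sham), 7.37 (MCT) and 7.32 (MCT + NI) (-0.11 for MCT + NI minus sham, adjusted p = 0.222).

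Kcna5 encodes Kv1.5, the pore subunit of an ultrarapid delayed rectifier current. Its values were 5.65, 5.58 and 5.16 (sham), 5.66, 5.76 and 5.82 (MCT) and 6.05, 6.23 and 6.03 (MCT + NI), so that the groups lay in 3 separate ranges, sham and MCT only narrowly so. Kcna5 rose by 0.64 in MCT + NI compared to sham mice (1.55-fold, SE 0.125, limma adjusted p = 0.0186). The difference between MCT and sham mice was 0.28 (adjusted p = 0.258). Between MCT + NI and MCT mice it was 0.35, with a 95% interval of 0.07 to 0.64 (limma, unadjusted p = 0.0197, adjusted p = 1). The call against sham was lost without MCT + NI mouse 615, 617 or 619, with adjusted p-values of 0.0581, 0.0547 and 0.0552, and without both mouse 644 and mouse 615 (adjusted p = 0.0836). It was also lost with only the 2 groups compared (adjusted p = 0.067) and with the atrial marker mean as a covariate (0.66, adjusted p = 0.133).

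Kcnj3 and Kcnj5 encode Kir3.1 and Kir3.4, the subunits that together form the acetylcholine-activated potassium channel, which slows the heart under vagal tone and is far more abundant in the atria than in the ventricles. Both genes had their highest MCT value in mouse 644 and lower values in all MCT + NI mice than in any sham mouse, so the stretch around each transcription start, 250 bases before and 50 after it, is shown to set the 2 genes side by side. The sequences are those of RefSeq on GRCm38.p6. The Kcnj3 stretch is chr2:55435720-55436019 on the plus strand and the Kcnj5 stretch chr9:32344295-32344594 on the minus strand. Capitals mark each match to the GC box GGGCGG on either strand.
Kcnj3: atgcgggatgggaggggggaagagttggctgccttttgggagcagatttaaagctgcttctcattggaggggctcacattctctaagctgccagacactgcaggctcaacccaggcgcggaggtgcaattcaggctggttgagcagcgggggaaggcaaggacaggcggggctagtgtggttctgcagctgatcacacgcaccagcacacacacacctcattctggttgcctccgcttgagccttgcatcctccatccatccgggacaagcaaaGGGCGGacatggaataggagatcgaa
Kcnj5: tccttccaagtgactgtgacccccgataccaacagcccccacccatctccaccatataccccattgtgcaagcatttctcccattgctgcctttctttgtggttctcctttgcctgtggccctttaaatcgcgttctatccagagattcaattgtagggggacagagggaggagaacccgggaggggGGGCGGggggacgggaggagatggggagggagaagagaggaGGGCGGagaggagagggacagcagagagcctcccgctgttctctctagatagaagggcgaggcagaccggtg
The GC box was present 1 time in Kcnj3 and 2 times in Kcnj5, and their GC contents were 57.7% and 58.3%, beside a median of 52.7% over 32851 promoters. On both strands, GGGCGG was found in 35.7% of all promoters, TATAAA in 13.6%, the GATA motif AGATAA in 11.2% and the T-box motif GGTGTGA in 3.98%. The letters of the last 3 were in neither window. Over the 27 measured genes of the set that the table holds, 17 had GGGCGG, 1 TATAAA, 3 AGATAA and 0 GGTGTGA. A gene was counted if any of its promoters held a match, whereas the percentages are of single promoters. The gene counts therefore cannot be read against those percentages. A match describes the letters and is not a site of binding.

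Kcnj3 had values of 9.61, 10.05 and 10.05 (sham), 8.55, 8.81 and 9.55 (MCT) and 8.66, 8.87 and 8.51 (MCT + NI). All sham mice lay above all others, with MCT mouse 644 just beneath them. Kcnj3 fell by 1.22 in MCT + NI compared to sham mice (0.429-fold, SE 0.235, limma adjusted p = 0.0171), and in MCT mice the difference was -0.93 (0.524-fold, adjusted p = 0.052). Kcnj5 had values of 7.93, 8.72 and 8.39 (sham), 7.29, 7.53 and 8.23 (MCT) and 7.59, 7.52 and 7.27 (MCT + NI). Its differences were -0.66 in MCT mice (adjusted p = 0.189) and -0.89 in MCT + NI mice (adjusted p = 0.0818). Cacna1h, a pore subunit of the low-voltage T-type calcium channel, likewise had its highest MCT value in mouse 644, with 6.93, 7.71 and 7.65 (sham), 5.74, 6.21 and 7.16 (MCT) and 6.33, 6.02 and 5.88 (MCT + NI). Its differences, -1.06 (adjusted p = 0.121) and -1.35 (adjusted p = 0.0525), were the largest of all 37 genes and did not pass. Cacna1g, the other T-type gene, differed by -0.06 and -0.18.

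The atrial markers moved with these 3 genes in MCT mouse 644, but little or not in MCT + NI mouse 615. Relative to the sham mean, the 7-marker mean was -4.98, -4.63 and -0.03 in MCT mice 640, 641 and 644 and -1.43, -4.22 and -4.88 in MCT + NI mice 615, 617 and 619. Kcnj3 was nevertheless lower in mouse 615 (8.66) than in mouse 617 (8.87). Kcnj5 (7.59) and Cacna1h (6.33) in mouse 615 were only slightly above those of mouse 617 (7.52 and 6.02). All 7 atrial markers were lower at an unadjusted p under 0.05 in both comparisons with sham mice, and 0 of 7 passed the adjusted threshold (limma). Without MCT mouse 644 the MCT differences were -1.22 for Kcnj3 (adjusted p = 0.0049), -0.94 for Kcnj5 (adjusted p = 0.0438) and -1.45 for Cacna1h (adjusted p = 0.0173), all past the threshold. MCT mice 640 and 641, which then remain, are both low in the atrial markers, while all sham mice are high. This fit therefore cannot separate MCT from atrial level.

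With the atrial marker mean of each mouse as a covariate the differences were -0.49 for Kcnj3 (adjusted p = 0.32), -0.17 for Kcnj5 (adjusted p = 0.806) and -0.33 for Cacna1h (adjusted p = 0.609). All 3 sham mice are high in these markers, so this covariate fit leans on mice 644 and 615. The Kcnj3 call in MCT + NI mice was lost without sham mouse 624 or 625 or MCT + NI mouse 615 or 619, with adjusted p-values of 0.0712, 0.0634, 0.0663 and 0.0781. With both mouse 644 and mouse 615 left out, Kcnj3 passed in MCT mice at -1.22 (adjusted p = 0.0132) and in MCT + NI mice at -1.21 (adjusted p = 0.0165), and Cacna1h at -1.45 (adjusted p = 0.028) and -1.48 (adjusted p = 0.0306). Kcnj5 did not, at -0.94 (adjusted p = 0.0722) and -0.95 (adjusted p = 0.0787). Every treated mouse then left was low in the atrial markers and every sham mouse high. Leaving both mice out thus widens the atrial gap between the groups and does not control for it. The covariate fit gave -0.74 for Kcnj3 in MCT + NI mice (adjusted p = 0.168). Cacna1h in MCT + NI mice passed without sham mouse 620 (-1.60, adjusted p = 0.0486), MCT mouse 640 (adjusted p = 0.0367) or MCT mouse 644 (adjusted p = 0.0138), and Kcnj5 without MCT mouse 644 (adjusted p = 0.0331). With each array centred on its median, Kcnj3 passed in MCT mice (adjusted p = 0.0463) and Cacna1h in MCT + NI mice (adjusted p = 0.048).

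**Figure D4:**
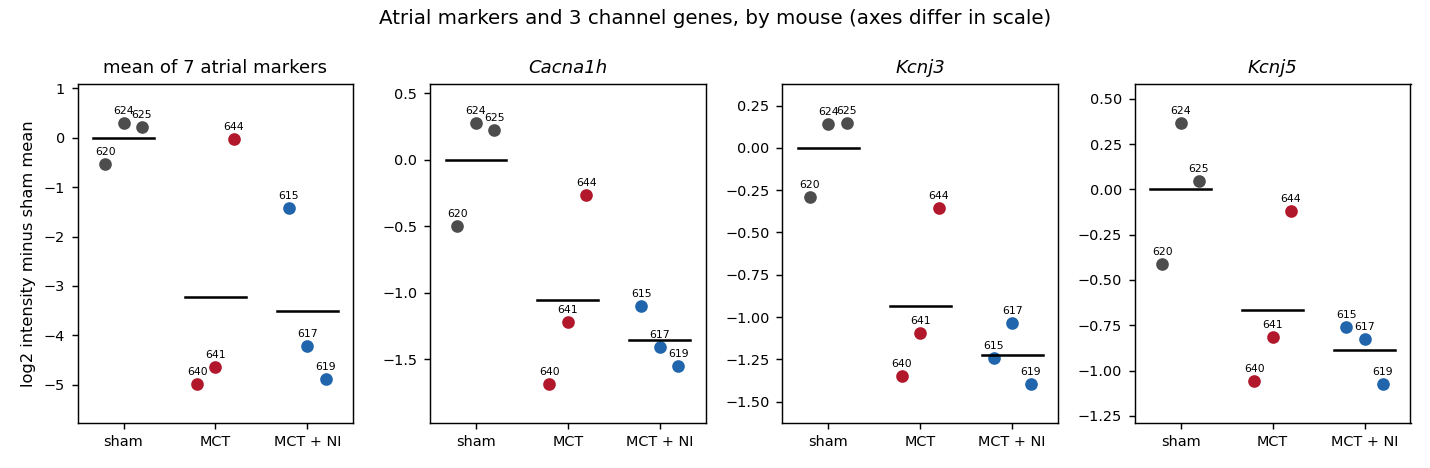
Log2 intensity minus the sham mean (y axis) in each mouse, by group (x axis), for the mean of 7 atrial markers and for Cacna1h, Kcnj3 and Kcnj5, with bars at group means and a scale of its own in each panel. In MCT mouse 644 the atrial mean was -0.03 from sham and the 3 channel genes lay above those of MCT mice 640 and 641. In MCT + NI mouse 615 the atrial mean was -1.43, above that of mice 617 and 619, but Kcnj3 lay below that of mouse 617.

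Among the delayed and inward rectifiers, Kcnh2, which encodes the pore of the rapid delayed rectifier, had means of 8.29 ± 0.040 (sham), 8.02 ± 0.14 (MCT) and 7.92 ± 0.26 (MCT + NI). The differences were -0.28 (limma adjusted p = 0.241) and -0.38 (adjusted p = 0.113). Kcnj2, the main pore of the inward rectifier that sets the resting potential, had means of 8.08, 7.88 and 7.70, with -0.37 for MCT + NI minus sham (adjusted p = 0.0712). Without MCT + NI mouse 617 the latter difference passed for both, at -0.51 for Kcnh2 (adjusted p = 0.0162) and -0.49 for Kcnj2 (adjusted p = 0.0109). Kcnj12, another inward rectifier subunit, and Kcnk3, a background potassium channel, had -0.25 (adjusted p = 0.135) and -0.20 (adjusted p = 0.222) in MCT + NI mice. Without MCT mouse 644, the MCT difference of Kcnk3 was -0.28 (adjusted p = 0.0374). Kcne1, the accessory subunit of the slow delayed rectifier and 1 of the 7 conduction system markers, had means of 4.91 (sham), 5.59 (MCT) and 5.39 (MCT + NI), with 0.68 for MCT minus sham (adjusted p = 0.0824) and 0.87 without MCT mouse 644 (adjusted p = 0.032). Its partner Kcnq1, the pore of that channel, differed by 0.02 in MCT mice, with a 95% interval of -0.11 to 0.15.

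The sodium, pacemaker and gap junction genes did not pass in any comparison. Scn4b, a beta subunit of sodium channels, had means of 5.68 ± 0.30 (sham), 6.10 ± 0.33 (MCT) and 5.74 ± 0.36 (MCT + NI), and the SD within groups was close to the difference. Atp1b1, a subunit of the sodium-potassium pump, differed by -0.07 in MCT and -0.06 in MCT + NI mice. The pacemaker channel genes Hcn2 and Hcn4 differed from sham by 0.02 and 0.13 in MCT mice and by 0.21 and 0.17 in MCT + NI mice, with overlapping groups. Gja1, which encodes connexin 43, the main gap junction protein of ventricular muscle, had means of 10.61 (sham), 10.80 (MCT) and 10.76 (MCT + NI). Gjc1, which encodes connexin 45, had means of 6.38, 6.57 and 6.52 (MCT minus sham 0.20, limma adjusted p = 0.244). Without MCT mouse 644 the Gjc1 difference was 0.30 (adjusted p = 0.0388).

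**Figure D5:**
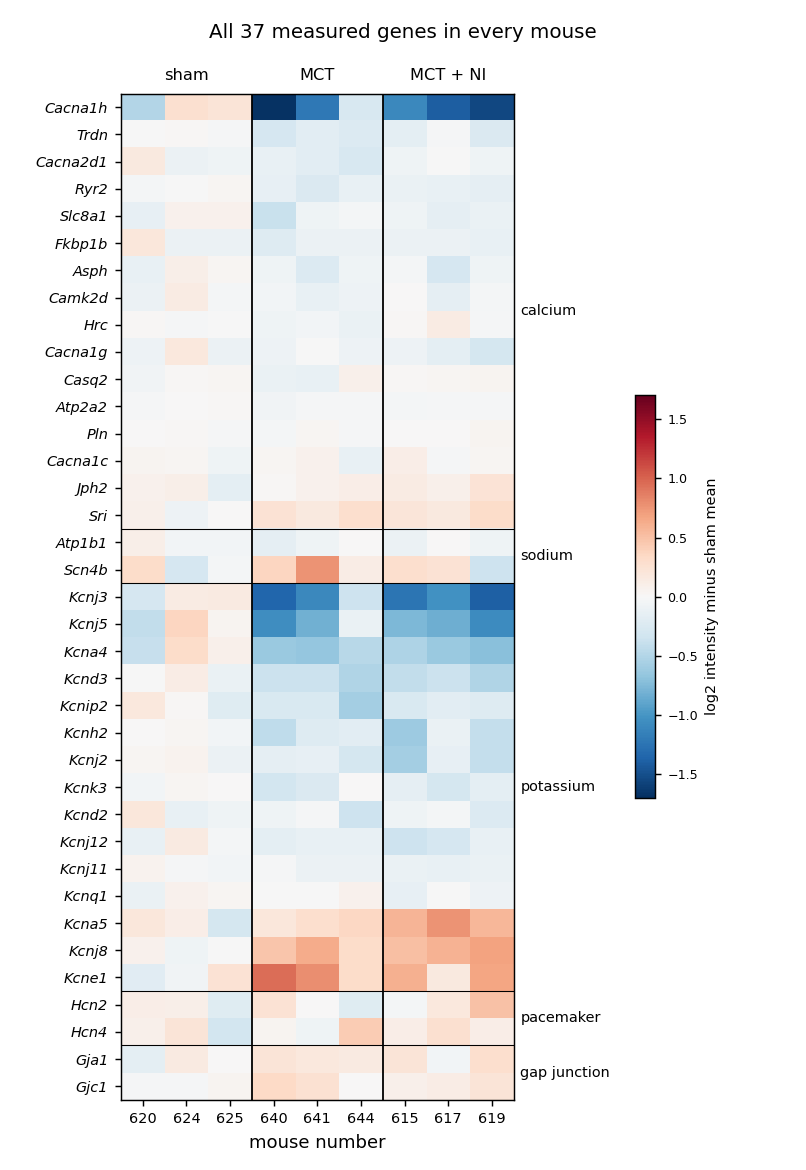
Log2 intensity minus the sham mean (colour, red higher and blue lower) of the 37 measured genes (rows, grouped by role) in each of the 9 mice (columns, by group and mouse number). The deepest blue is in Cacna1h and Kcnj3, and MCT mouse 644 is paler in both than MCT mice 640 and 641.

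Comparing the MCT + NI group with the MCT group asks what the diet changed under MCT. None of the 37 genes passed (limma, smallest adjusted p = 1), as was so for 0 of all 18820 genes. At an unadjusted p under 0.05, 2 genes (5.41%) were higher in MCT + NI mice, Kcna5 and Hrc, and 0 were lower. Of all genes 2.9% reached this threshold, 1.59% higher and 1.3% lower. Values of both MCT groups were fully separate for 5 of the 37 genes, beside 6.08% of all genes. Kcna5, Hrc, Cacna2d1 and Kcnip2 were higher in all 3 MCT + NI mice (10.8%, beside 3.11%) and Kcnj11 was lower (2.7%, beside 2.96%). Kcnip2 was barely separate, with a highest MCT value of 8.814 and a lowest MCT + NI value of 8.816. At a second, dimmer Cacna2d1 probe set the groups overlapped, at 9.27, 9.16 and 9.05 (MCT) and 9.19, 9.36 and 9.28 (MCT + NI). The median difference over the 37 genes was 0.01, and 19 were positive and 18 negative. Differences against MCT and against sham share arrays, so the values of each comparison are given side by side and were not correlated.

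A wider list held further genes of the same roles, of which 43 calcium, 16 sodium, 45 potassium, 7 pacemaker and 10 gap junction genes were measured. In MCT compared to sham mice 10 of these rose and 1 fell, beside 4.65% and 1.61% of all genes. In MCT + NI compared to sham mice 10 rose and 1 fell, beside 4.52% and 1.75% of all genes. The 11 genes are the same in both comparisons, which share the sham arrays. In MCT + NI against MCT mice 0 passed (limma), and 0 had an unadjusted p under 0.05. None of the pacemaker or gap junction genes of the list passed.

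Scn3b, with the largest log2 difference of the genes of this list that passed, is a beta subunit of voltage-gated sodium channels. Its values were 4.24, 4.45 and 4.44 (sham), 6.40, 6.63 and 6.00 (MCT) and 6.39, 7.07 and 6.58 (MCT + NI), with a wide gap between sham and all other mice. Scn3b rose by 1.97 in MCT mice (SE 0.194, limma adjusted p = 0.000603) and by 2.31 in MCT + NI mice (adjusted p = 0.000315). All 3 sham values lay below the array medians, so the size of this difference is uncertain and no fold is given. The second sodium gene, Fxyd5, a regulator of the sodium-potassium pump, rose by 1.11 in MCT mice (2.15-fold, adjusted p = 0.000673) and by 0.91 in MCT + NI mice (1.88-fold, adjusted p = 0.00185). Both passed in all 20 alternatives run.

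Of the 43 calcium genes of the wider list, 4 rose in each comparison with sham mice, beside 4.65% (MCT) and 4.52% (MCT + NI) of all genes. Fkbp1a, which encodes the binding protein FKBP12 of ryanodine receptors, rose by 0.48 in MCT mice (limma adjusted p = 0.00083) and by 0.44 in MCT + NI mice (adjusted p = 0.00155), and passed in all 20 alternatives. Bin1, a membrane-bending protein of the transverse tubules, rose by 0.69 (adjusted p = 0.00687) and 0.51 (adjusted p = 0.0276). Stim2, a calcium sensor of the reticulum, rose by 0.40 (adjusted p = 0.0305) and 0.39 (adjusted p = 0.0352). Itpr2, an inositol trisphosphate receptor, rose by 0.21 (adjusted p = 0.0309) and 0.25 (adjusted p = 0.0135). The direction of each held in every alternative, but calls were lost on leaving out single mice. In MCT mice Itpr2 was lost without mouse 620, 624, 625, 640 or 641 (adjusted p = 0.0668 to 0.116) and Stim2 without these or mouse 615 or 619 (0.0541 to 0.0869). In MCT + NI mice Itpr2 was lost without mouse 619 (0.0615), Stim2 without any mouse but 641 and 644 (0.05 to 0.115) and Bin1 without any but 625, 640 and 644 (0.0502 to 0.0865).

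Of the 45 potassium genes of the wider list, 4 rose and 1 fell in each comparison with sham mice. Of all genes 4.65% rose and 1.61% fell in MCT mice, and 4.52% rose and 1.75% fell in MCT + NI mice. Kcne3, an accessory potassium channel subunit, rose by 1.37 in MCT mice (limma adjusted p = 0.00753) and by 1.41 in MCT + NI mice (adjusted p = 0.00643). Its sham values were 3.93, 3.36 and 3.45, below the array medians, so the size of its difference is as uncertain as that of Scn3b. Kcnmb1, the beta subunit of the calcium-activated channel of smooth muscle, rose by 0.81 (adjusted p = 0.0181) and 0.85 (adjusted p = 0.0149), in the same comparisons in which most smooth muscle and pericyte markers rose. Kcnn3, a small-conductance calcium-activated channel, rose by 0.42 (adjusted p = 0.043) and 0.41 (adjusted p = 0.0449), and Kcnab2, a cytoplasmic beta subunit, by 0.49 (adjusted p = 0.0447) and 0.48 (adjusted p = 0.0482). Kcnh7, a relative of Kcnh2, fell by 1.16 (adjusted p = 0.0483) and 1.59 (adjusted p = 0.0123). Its values were 3.94, 4.70 and 4.87 (sham), 2.89, 3.32 and 3.83 (MCT) and 3.16, 2.87 and 2.72 (MCT + NI), close to or below the array medians throughout. As for the atrial markers, its highest MCT value was that of mouse 644. With the atrial marker mean as a covariate the Kcnh7 differences were -0.64 (adjusted p = 0.309) and -1.02 (adjusted p = 0.133), and with mice 644 and 615 left out they were -1.40 (adjusted p = 0.0457) and -1.71 (adjusted p = 0.0268). The latter fit does not control for atrial level, as for Kcnj3. Only Kcne3 kept its call on leaving out any single mouse. In MCT mice Kcnmb1 was lost without sham mouse 620 or 624 or MCT mouse 640 or 641 (adjusted p = 0.0515 to 0.0739), Kcnab2 without any mouse but 625 (0.0595 to 0.122), Kcnn3 without any but 620 and 617 (0.0556 to 0.131) and Kcnh7 without any but 620 and 644 (0.0696 to 0.159). In MCT + NI mice Kcnmb1 was lost without mouse 624, 615 or 619 (0.0563 to 0.0686), Kcnab2 without any but 625 (0.0684 to 0.165), Kcnn3 without any but 620 (0.0603 to 0.126) and Kcnh7 without mouse 624 or 619 (0.0551 and 0.0607).

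Sln and Gja5 belong to the wider list and are also markers, of atrial cells and of the conduction system, and were named after their values were seen. Sln encodes sarcolipin, an inhibitor of the SERCA pump, and had values of 6.57, 7.60 and 7.40 (sham), 3.81, 4.15 and 7.23 (MCT) and 5.71, 3.23 and 3.39 (MCT + NI). Gja5, which encodes connexin 40, had 6.72, 8.04 and 8.04 (sham), 5.30, 5.62 and 7.31 (MCT) and 5.79, 5.64 and 5.58 (MCT + NI) (limma adjusted p = 0.137 and 0.0655). In both, MCT mouse 644 lay within the range of the sham mice while MCT mice 640 and 641 lay below it, as for the atrial marker mean.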

How the data were processed

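The authors processed the scans by RMA, named without a version in the submitters' processing notes, and deposited log2 intensity values for 35556 probe sets of 9 arrays (3 per group). Per the methods, probe sets were regrouped through Entrez gene, whereas the deposited table carries the manufacturer's numbering. RMA makes arrays alike in distribution and compresses differences at low intensity. The raw scans were not used here, and the deposited table names no genome build. Promoter sequences were read from RefSeq (GRCm38.p6). Of the probe sets 21218 were annotated to 1 gene, 1881 to several and 12457 to none, and only the first kind was used. Of 18820 genes, 1386 had several probe sets, and the brightest was used.

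A linear model with 3 group means was fitted to all 9 mice together (limma 3.58.1, R 4.3.3), and the empirical Bayes prior followed the intensity trend. P-values are two-sided and Benjamini-Hochberg adjusted over all genes. Each group holds separate mice. Genes with an adjusted p under 0.05 are given in full, those at an unadjusted p under 0.05 by means or difference, the rest by range. The genes, the wider list, the markers and the alternatives were chosen with earlier results of these data known. In 12042 genes at least 2 mice share 1 value. The number of arrays limits the precision.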

Additional observations from a re-analysis of the deposited data

How the results depend on the processing

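The counts of genes passing depended on single mice and on settings. Leaving out each mouse in turn gave 2 to 9 of the 37 genes in MCT against sham mice (2 without sham mouse 624 or MCT mouse 640 or 641, 9 without MCT mouse 644) and 1 to 6 in MCT + NI against sham mice (1 without MCT + NI mouse 619, 2 without mouse 615). Over all genes these fits called 3.59% to 6.35% and 3.32% to 6.29%, in the same order. With no intensity trend 2 passed in MCT against sham mice, with a gene's probe sets averaged 2, and with array weights 7. Of all genes 5.17%, 5.99% and 6.72% passed under these settings. In MCT + NI against sham mice 7 passed with array weights, beside 6.76% of all genes. With brighter genes alone tested, 8 passed, beside 12.8% of those 10842 genes. With the atrial marker mean as a covariate 1 passed in each comparison, Kcnip2 (-0.55, adjusted p = 0.0431) and Kcnj8. Of all genes 2.68% and 2.11% passed with this covariate. MCT + NI against MCT mice gave 0 throughout. At an unadjusted p under 0.05, leaving out mice gave 10 to 17 genes for MCT and 12 to 18 for MCT + NI against sham, and 1 to 3 between both MCT groups. The covariate gave 9 and 10 in the comparisons with sham, and no trend or repeated quantile normalization gave 1 for MCT + NI against MCT. Shares of all genes at this threshold were not computed for these settings. Of the wider list, leaving out mice gave 5 to 16 and 4 to 15 genes in the comparisons with sham. There 7 passed with only the 2 groups compared (MCT), 6 and 7 with all probe sets tested, and 3 and 3 with the covariate. Of all genes 4.61% passed with only the 2 groups compared (MCT), and 4.11% and 3.9% with all probe sets tested. The cause of these shifts was not tested. Over 20 alternatives no called gene changed sign, centring and repeated quantile normalization included. Of 2054 refitted differences that had not passed at first, 80 changed sign, none of them passing. Refitting the single genes of the wider list was chosen after seeing the data. The fits were unpaired, because the groups share no mouse numbers. Signal over background is limited for genes with values near or below the array medians, among them Fkbp1b, Kcna4, Kcne1, Kcnh7, Kcne3, Kcnmb1, Kcnab2 and, in sham mice, Scn3b.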
